A study of Mus musculus with 19 samples.

Results

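Corticotectal projection neurons (CTPN) were set against callosal projection neurons (CPN) at postnatal day 14 (P14), across all genes of the array. The comparison takes the 2 arrays titled as corticotectal neurons at P14 and the 2 titled as callosal neurons at P14, which are 4 of the 19 Affymetrix Mouse Genome 430 2.0 arrays in the series. The other arrays hold corticospinal motor neurons (CSMN) at embryonic day 18 (E18), P3, P6 and P14 and CPN at E18, P3 and P6. All cells came from the cortex of C57BL/6 mice, with no genetic change or drug treatment in the labels. They were marked by green fluorescent microspheres, which axons take up and carry back to the cell body, and isolated by fluorescence-activated cell sorting into an RNA preservative. Their RNA was amplified in 2 rounds of in vitro transcription. The replicates are described as independent biological collections, and the number of animals behind each is not given in the sources used here. The labels tie the visual cortex to CTPN and the sensorimotor cortex to CPN and CSMN, without saying clearly whether these are injected or collected areas. Neuron type and this labelled area therefore cannot be told apart in any difference below.

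CTPN are pyramidal neurons of layer V whose axons leave the cortex for the superior colliculus in the midbrain, the centre that turns visual input into orienting movements. Together with CSMN they belong to the subcerebral projection neurons, whose fate in mouse depends on the transcription factors Fezf2 and Bcl11b (also called Ctip2). CPN lie mostly in the upper layers, with some in layer V, and join the hemispheres through the corpus callosum. Many neurons of both kinds reach their final axonal targets by pruning branches in the first weeks after birth.

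Values are log2 expression as deposited, and differences are CTPN minus CPN ± the standard error (SE) of a limma model of all 9 groups. A gene passed the test, and is called higher or lower, at a Benjamini-Hochberg adjusted p under 0.05 over 18193 genes. The p-values measure only the spread between these arrays, and 2 arrays per group limit the precision. Array medians lay between 6.42 and 6.62, and no detection calls were given. The size of a difference therefore depends on background where a gene lay near or below 6.62, and a fold is printed only for genes with all 4 arrays above that level. The CTPN arrays correlated at 0.977 with each other, which lay within their range of 0.973 to 0.98 with the CPN arrays, while the CPN arrays correlated at 0.993. The second CSMN array at P14 stood apart, at 0.906 with its own replicate, and it entered the spread shared by all groups. Neuronal genes were bright in both groups: Syt1, the vesicle calcium sensor, read 13.15 and 13.01 in CTPN, against 13.16 and 13.24 in CPN, and Rbfox3, which encodes NeuN, read 12.79 and 12.53 in CTPN, against 12.94 and 13.03 in CPN.

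Of 36 gene lists, subcerebral transcription factors had the highest median difference (1.39, with 7 of 15 higher in CTPN) and callosal markers of earlier screens the lowest (-1.47, with 7 of 22 lower). The lists were chosen with earlier results of these data known, so these directions are not independent evidence. Pbx3, Npr3, Abca8a, Crym and Bcl11b had the 5 largest differences on the higher side. S100a6, Trbv1, Tnnc1, Prdm8 and Egr2 had the 5 largest on the lower side. In all, 193 of 18193 genes (1.06%) passed the test, with 83 higher (0.456%) and 110 lower (0.605%) in CTPN. Every list count against CPN below is to be read beside these shares. Of these genes, 184 differed at least 2-fold on the fitted scale, and the median difference over all genes was 0.00. Leaving out the first or second CTPN array gave 141 or 101 genes, leaving out the first or second CPN array gave 51 or 65, and leaving out either CSMN array at P14 raised it to 395.

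Calls of single genes also changed when single arrays were left out. Leaving out 1 array leaves its group with 1 array and less power, so a lost call does not show dependence on that array. Over all settings the difference stayed between 1.37 and 1.54 for Tubb2b and between 1.89 and 2.34 for Parm1. It ran more widely for others, from 0.24 to 2.76 for Pcsk5, 0.54 to 1.84 for Cacna2d2 and -1.54 to -0.58 for Il1rapl2. Each of these genes lost the test whichever of the 4 arrays was left out. Of the 63 named genes that passed, 24 still did so whichever of the 4 arrays was left out, and each of the others lost the test without at least 1 of them. On the higher side those that kept it were Pbx3, Npr3, Bcl11b, Gprc5b, Vat1l, Fezf2, Otx1, Amdhd1, Syt9, Tox, Tenm3, Kcnn2 and Vcan. On the lower side they were S100a6, Trbv1, Tnnc1, Lmcd1, Nptx2, Kcnh5, Plxnd1, Igfbp4, Strip2, Kcnc2 and Kcnv1. The test was lost by 24 of the 63 without the first CTPN array, by 19 without the second, by 34 without the first CPN array and by 33 without the second. The probe set mattered too: the mean of all probe sets, in place of the brightest, shrank the difference by more than 1.5 times in 19 of these 63 genes, of which 12 no longer passed, and Epha5 also lost the test. Beyond those given with their genes below, the mean was -1.25 for Cited4, -1.34 for Chn2, -0.58 for Il1rapl2, -0.68 for Ryr2 and -1.06 for Aldh1l1, none past the test. It was 1.17 for Pcsk5, -1.80 for Trbv1, -1.63 for Nptx2, -1.33 for Nectin3, 0.65 for Syt2 and -0.96 for Sstr3, all past it.

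**Figure D1:**
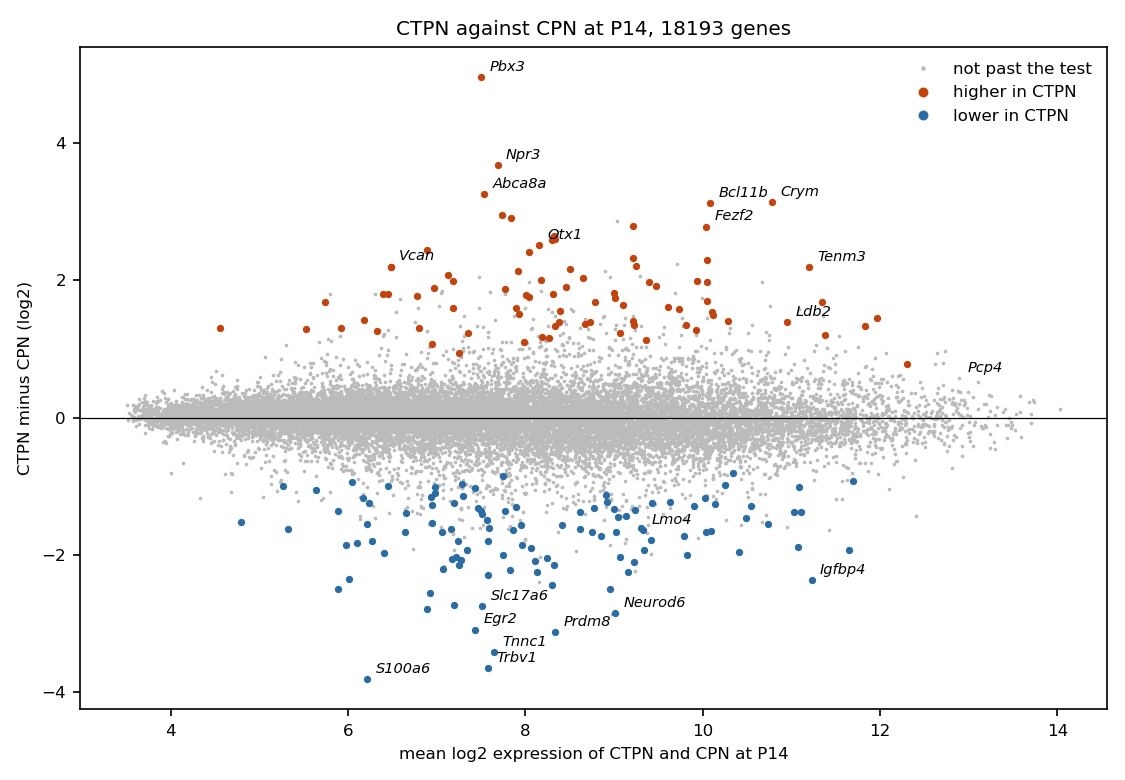
Each point is a gene, with its mean log2 expression over the CTPN and CPN arrays at P14 on the horizontal axis and CTPN minus CPN (log2) on the vertical axis. The 83 genes higher in CTPN and the 110 lower in CTPN are coloured, and Pbx3 (4.96) and S100a6 (-3.81) mark the extremes among them.

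The transcription factors of subcerebral neurons were led by Bcl11b and Fezf2. Bcl11b read 11.50 and 11.79 on the CTPN arrays, against 8.40 and 8.65 on the CPN arrays. The difference was 3.12 ± 0.42, adjusted p = 0.00131, which is 8.7-fold higher. Fezf2, which acts upstream of Bcl11b in mouse cortex, read 11.57 and 11.30 on the CTPN arrays, against 8.84 and 8.46 on the CPN arrays. It was 6.89-fold higher (2.79 ± 0.28, adjusted p = 0.000218). For both genes each CTPN array lay more than 2 log2 units above each CPN array. Otx1, a homeobox factor of layer V neurons that is needed in mouse for pruning of their subcortical axons, was 5.71-fold higher (2.51 ± 0.31, adjusted p = 0.00082). Tox, a nuclear protein with an HMG box, was 4.41-fold higher (2.14 ± 0.28, adjusted p = 0.00109), and Nfib, a nuclear factor I protein, was 3.79-fold higher (1.92 ± 0.28, adjusted p = 0.00229).

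Of the 15 measured subcerebral transcription factors, 7 were higher and none was lower, against 0.456% and 0.605% of all genes. The list was chosen with earlier results of these data known, so its direction is not independent evidence. The median difference of the list was 1.39. Both CTPN arrays lay above both CPN arrays for 12 of the 15. Over all genes the groups did not overlap in 41.4%, with CTPN above in 21.1% and below in 20.3%. The count of higher members fell to 4 without the first CPN array and to 5 without the second CPN or second CTPN array. Mef2c, an activity-dependent factor present in both neuron types, differed by 0.01 ± 0.20. Foxo1, a forkhead factor, was the one member with a negative difference, -0.95 ± 0.32, which did not pass.

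Markers of layer V and corticospinal neurons followed, with 10 of 26 higher and 1 lower, against 0.456% and 0.605% of all genes. The list median was 0.82. Some of these markers were first picked in screens of neurons sorted in the same way, so their direction is not independent evidence. The count of higher members lay between 4 and 7 when any 1 of the 4 arrays was left out. Npr3, the receptor that clears natriuretic peptides, read 9.46 and 9.61 on the CTPN arrays, against 5.65 and 6.04 on the CPN arrays. Its CPN arrays lay below the array medians, and the difference was 3.68 ± 0.41, adjusted p = 0.000426. Averaging all 3 of its probe sets gave 1.79.

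Crym, a protein that binds thyroid hormone and marks subcerebral neurons, read 12.48 and 12.23 on the CTPN arrays, against 9.40 and 9.03 on the CPN arrays. It was 8.82-fold higher (3.14 ± 0.47, adjusted p = 0.00335), with no overlap between the groups. Vat1l, whose product resembles a vesicle membrane protein, was 6.94-fold higher (2.79 ± 0.38, adjusted p = 0.00132). Parm1, a mucin-like membrane protein, was 4-fold higher (1.999 ± 0.44, adjusted p = 0.0432). Pcp4, a small calmodulin regulator that is strong in layer V, read 13.26 and 13.11 in CTPN, against 12.69 and 12.52 in CPN. Its CTPN arrays lay above its CPN arrays, but the difference of 0.58 ± 0.32 did not pass (adjusted p = 0.919).

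Igfbp4, which binds insulin-like growth factors and is listed as a corticospinal marker, went the other way. It read 9.998 and 10.09 on the CTPN arrays, against 12.44 and 12.38 on the CPN arrays. The CTPN level was 5.16-fold lower (-2.37 ± 0.20, adjusted p = 0.000129), the smallest adjusted p on the lower side among the named genes. The CSMN arrays of the same age read 12.60 and 12.41, close to CPN, so CTPN stood below both of the other types.

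**Figure D2:**
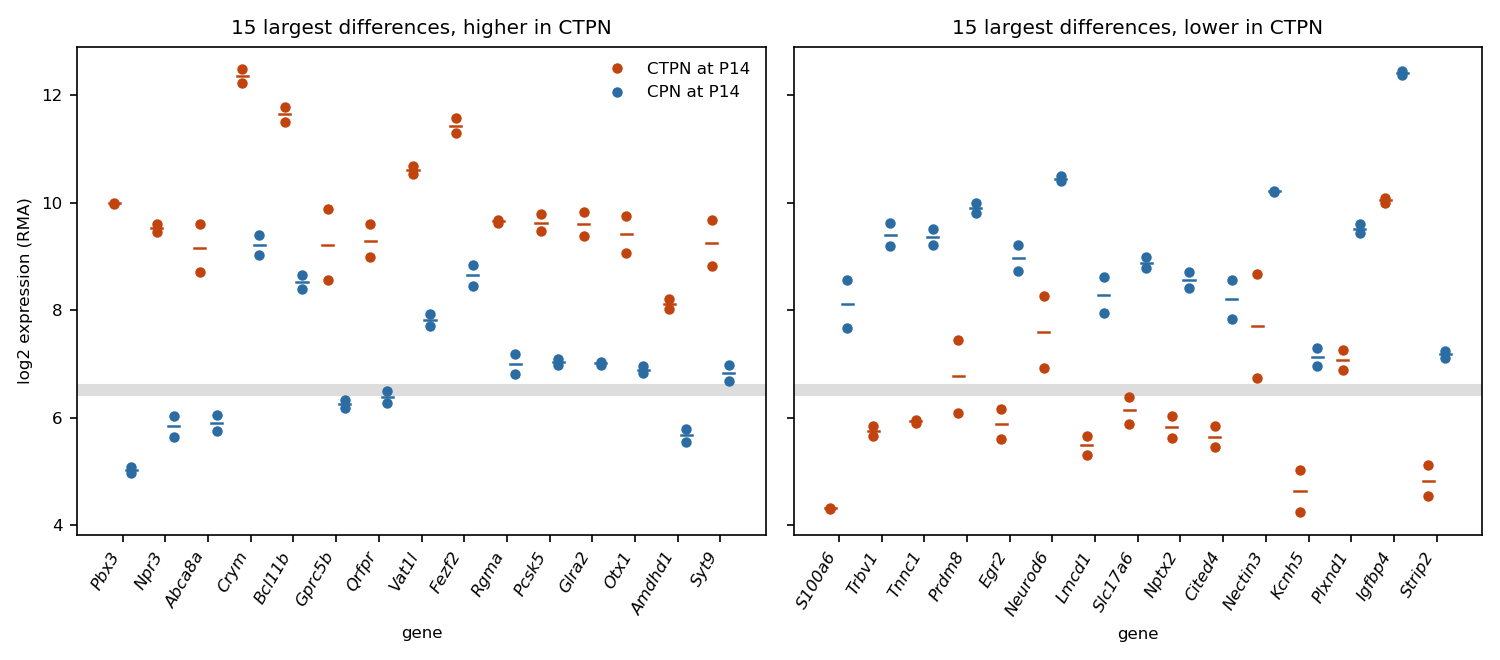
Log2 expression of the 15 genes with the largest differences in each direction, with CTPN at P14 (left of each pair, 2 arrays) and CPN at P14 (right, 2 arrays). Points are arrays, short lines are means and the grey band spans the medians of all arrays, 6.42 to 6.62. In every gene shown both CTPN arrays lay on one side of both CPN arrays, as in all 193 genes past the test and 41.4% of all genes. The CTPN values of most genes on the lower side lay within or under the band.

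Among the largest higher genes outside these lists, Pbx3 stood first. Pbx3, a homeobox protein that binds DNA together with Hox and Meis proteins, read 10.001 and 9.97 on the CTPN arrays, against 5.08 and 4.97 on the CPN arrays. The CTPN arrays were within 0.03 of each other and the CPN arrays lay under the array medians, for a difference of 4.96 ± 0.64, adjusted p = 0.000906. Abca8a, a lipid transporter of the ATP-binding cassette family, read 9.60 and 8.72 on the CTPN arrays, against 6.05 and 5.76 on the CPN arrays. Its difference was 3.26 ± 0.52, adjusted p = 0.00498.

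Several membrane receptors and secreted-protein genes were higher as well. Gprc5b, an orphan receptor, read 8.56 and 9.88 on the CTPN arrays, against 6.33 and 6.19 on the CPN arrays. The CTPN arrays differed from each other by more than 1 log2 unit but stayed above CPN (2.96 ± 0.42, adjusted p = 0.00214). Qrfpr, the receptor of the hypothalamic peptide QRFP, read 8.99 and 9.60 on the CTPN arrays, against 6.51 and 6.27 on the CPN arrays, a difference of 2.90 ± 0.63, adjusted p = 0.0404. Glra2, the alpha subunit of glycine receptors best known from developing neurons, was 6.01-fold higher (2.59 ± 0.45, adjusted p = 0.0103). Pcsk5, a protease that matures secreted proteins, was 6.05-fold higher (2.60 ± 0.53, adjusted p = 0.026). That value fell to 0.24 when letter-marked probe sets, with a letter such as a, s or x in their name, were left out. Such a letter does not by itself show cross-hybridization. Syt9, a calcium sensor of vesicle fusion, was 5.31-fold higher (2.41 ± 0.33, adjusted p = 0.00152). Amdhd1, an enzyme of histidine breakdown, had a difference of 2.45 ± 0.30 (adjusted p = 0.000661), with CPN below the array medians.

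The lower genes included regulators of transcription. Of those below, Prdm8 and Neurod6 were bright in CSMN too. At E18, P3, P6 and P14 the CSMN means were 9.68, 10.02, 9.83 and 8.72 for Prdm8. For Neurod6 they were 11.5, 11.17, 10.66 and 8.655. The 2 CSMN arrays at P14 were far apart, at 9.79 and 7.65 for Prdm8 and 9.88 and 7.43 for Neurod6. Neither gene passed the limma test between CTPN and CSMN (adjusted p = 0.241 and 0.592), and for Neurod6 their arrays overlapped. Prdm8, a repressor with a PR domain that acts in mouse cortical neurons, read 6.09 and 7.46 on the CTPN arrays, against 9.99 and 9.81 on the CPN arrays. The CTPN arrays were 1.37 apart and both lay below CPN (-3.13 ± 0.52, adjusted p = 0.00718). Neurod6, a bHLH factor of cortical pyramidal neurons, read 6.92 and 8.26 on the CTPN arrays, against 10.49 and 10.39 on the CPN arrays. It was 7.2-fold lower (-2.85 ± 0.57, adjusted p = 0.0247). Lmo4, a LIM-only cofactor of callosal neurons and of cortical areas, read 8.82 and 8.20 on the CTPN arrays, against 10.15 and 10.15 on the CPN arrays. It was 3.11-fold lower (-1.64 ± 0.33, adjusted p = 0.0271).

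Cux2, the homeobox marker of upper layers, did not pass. It read 6.87 and 8.22 on the CTPN arrays, against 10.45 and 10.36 on the CPN arrays. The CTPN arrays were 1.35 apart, and the difference was -2.86 ± 0.69, adjusted p = 0.0691. The mean of its 3 probe sets, which did not all share a sign, was -1.16 (adjusted p = 0.172), while among genes above the median brightness it passed (adjusted p = 0.0443). Lhx2, a LIM-homeobox factor, differed by -1.61 ± 0.59 (adjusted p = 0.424), with its CTPN arrays at 5.82 and 7.37 and its CPN arrays at 8.26 and 8.14. Of the 15 measured callosal and upper-layer transcription factors, Lmo4 was the 1 that passed, none was higher, and the list median was -0.68. For 10 of the 15, both CTPN arrays lay below both CPN arrays, against 20.3% of all genes.

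The callosal markers of earlier screens held the most lower members of any list. Of 22 measured, 7 were lower and none was higher, against 0.605% and 0.456% of all genes, and the median was -1.47. These markers were picked in part from samples of this kind, so their direction is not independent evidence. The count of lower members was 2, or 5 without the second CTPN array, when any of the 4 arrays was left out. Tnnc1, the slow-muscle and cardiac troponin C, read 5.91 and 5.96 on the CTPN arrays, against 9.51 and 9.21 on the CPN arrays. The difference was -3.42 ± 0.31, adjusted p = 0.000145, and both CTPN arrays lay under the array medians. Plxnd1, a plexin that receives semaphorin signals, was 5.43-fold lower (-2.44 ± 0.33, adjusted p = 0.00132). Nectin3, an adhesion molecule, was 5.67-fold lower (-2.50 ± 0.47, adjusted p = 0.016). Its difference was -1.53 without the first CTPN array and no longer passed. Gpr6, an orphan receptor, was 4.25-fold lower (-2.09 ± 0.39, adjusted p = 0.0151), and Chn2, a Rac-inactivating protein, was 4.13-fold lower (-2.04 ± 0.46, adjusted p = 0.048). Kitl, the ligand of the Kit receptor, read 6.18 and 7.73 in CTPN, against 9.50 and 9.21 in CPN, and did not pass (-2.40 ± 0.56, adjusted p = 0.0573).

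The start regions of Fezf2 and Tnnc1 are shown because the genes passed with similar adjusted p in opposite directions and differ widely in CG content. Each run covers 250 bases before and 50 bases after a RefSeq transcript start on GRCm38.p6, 5′ to 3′, with CG dinucleotides in capitals. The Fezf2 window is chr14:12345816-12346115 on the minus strand, with 20 CG and 61.3% G and C. The RefSeq gene span of Fezf2 reaches 12346803 on the same build, so this window belongs to a start inside that span. The Tnnc1 window is chr14:31208062-31208361 on the plus strand, with 1 CG and 58.0% G and C.
Fezf2: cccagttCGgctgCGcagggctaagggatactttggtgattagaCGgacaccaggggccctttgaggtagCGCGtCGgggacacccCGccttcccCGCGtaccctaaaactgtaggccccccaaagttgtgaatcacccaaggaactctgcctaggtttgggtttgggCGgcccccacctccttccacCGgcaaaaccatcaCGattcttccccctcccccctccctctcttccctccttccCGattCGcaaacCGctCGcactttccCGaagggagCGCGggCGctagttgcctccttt
Tnnc1: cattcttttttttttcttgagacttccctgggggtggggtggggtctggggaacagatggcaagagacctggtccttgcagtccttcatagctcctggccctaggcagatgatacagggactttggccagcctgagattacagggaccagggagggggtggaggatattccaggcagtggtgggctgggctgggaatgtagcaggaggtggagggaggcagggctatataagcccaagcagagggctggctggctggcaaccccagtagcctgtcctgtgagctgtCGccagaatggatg
Over all genes, a window was matched for 61 of the 83 higher genes, 96 of the 110 lower genes and 14452 of the 18193 tested. The median CG count was 15 in the higher, 16.5 in the lower and 17 in all matched genes. At least 1 CG was present in 100% of the higher, 97.9% of the lower and 98.0% of all windows.

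Other lower genes of large size had varied roles. S100a6, a small calcium-binding protein, read 4.31 and 4.32 on the CTPN arrays, against 8.57 and 7.68 on the CPN arrays, the largest difference on this side (-3.81 ± 0.41, adjusted p = 0.000405). Trbv1, a variable segment of the T cell receptor beta gene, read 5.66 and 5.86 on the CTPN arrays, against 9.62 and 9.19 on the CPN arrays (-3.64 ± 0.42, adjusted p = 0.000573). Its 2 probe sets went opposite ways, and without the one marked for cross-hybridization the value was 0.04. Lmcd1, a LIM protein that restrains GATA factors, read 5.67 and 5.32 on the CTPN arrays, against 8.63 and 7.95 on the CPN arrays (-2.79 ± 0.28, adjusted p = 0.000218). Cited4, a co-activator that binds CBP and p300, had a difference of -2.56 ± 0.38 (adjusted p = 0.00286). It was 0.07 without letter-marked probe sets, the letter here being a. Strip2, a striatin-interacting protein, differed by -2.35 ± 0.25 (adjusted p = 0.000399), with CTPN far below the array medians.

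The axon guidance genes that passed lay on both sides. Rgma, a membrane-anchored guidance cue that binds neogenin, read 9.61 and 9.69 in CTPN, against 7.18 and 6.82 in CPN, and was 6.27-fold higher (2.65 ± 0.40, adjusted p = 0.00335). Nrp1, the co-receptor of class III semaphorins, was 3.35-fold higher (1.75 ± 0.29, adjusted p = 0.00634), whereas the semaphorin receptor Plxnd1 was lower. Epha5, a receptor of ephrins in map formation, was 2.9-fold higher (1.53 ± 0.33, adjusted p = 0.0371), but did not pass with its 4 probe sets averaged (1.15, adjusted p = 0.155). These were the members that passed in their lists, beside 1.06% of all genes. They were 1 of 23 netrin, Slit and Rgm genes, 1 higher and 1 lower of 29 semaphorin genes, and 1 of 21 Eph and ephrin genes. Medians of the lists were 0.20, 0.08 and 0.06.

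Adhesion genes changed in both directions. Tenm3, a teneurin that matches visual axons to their targets in mouse, read 12.03 and 12.55 on the CTPN arrays, against 10.18 and 10.02 on the CPN arrays, with no overlap. It was 4.57-fold higher (2.19 ± 0.30, adjusted p = 0.00156). Cntn6, a contactin of layer V, was 3.95-fold higher (1.98 ± 0.37, adjusted p = 0.0151) and Cntnap2, which clusters axonal potassium channels, was 3.11-fold higher (1.63 ± 0.32, adjusted p = 0.0214). Il1rapl2, a membrane protein of the interleukin receptor family, was 2.64-fold lower (-1.40 ± 0.29, adjusted p = 0.0277). In this list of 31 contactins, teneurins and related genes, 3 were higher and 1 lower, with a median of 0.23. Leaving out 1 of the 4 arrays gave 1 or 2 higher, none lower and a median between 0.05 and 0.40. Cntn6, Cntnap2 and Il1rapl2 lost the test whichever array was left out, while Tenm3 kept it. Among 23 cadherins and protocadherins, Cdh22 was 2.64-fold higher (1.40 ± 0.29, adjusted p = 0.0292), Cdh10 was 3.44-fold lower (-1.78 ± 0.27, adjusted p = 0.00335) and Cdh9 differed by -1.66 ± 0.34 (adjusted p = 0.0278). The median of the cadherin list was 0.17. With all 4 probe sets averaged the value of Cdh10 was -0.65 and did not pass.

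The neurofilament and axonal cytoskeleton genes that passed were higher in CTPN. Ina, the neurofilament protein alpha-internexin, was 2.51-fold higher (1.33 ± 0.20, adjusted p = 0.00379), and the tubulin Tubb2b was 2.74-fold higher (1.45 ± 0.29, adjusted p = 0.0261). These were the 2 of 32 that passed, and none was lower, against 0.456% higher and 0.605% lower over all genes. The list median was 0.31, with 24 of 32 differences above 0. Nefh, the heavy neurofilament chain, read 8.97 and 9.70 in CTPN, against 8.14 and 8.23 in CPN, and did not pass (1.15 ± 0.47, adjusted p = 0.563).

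Potassium channel genes held 5 lower members and 1 higher among 46, against 0.605% and 0.456% of all genes, with a median of -0.12. Kcnh5, a voltage-gated channel of the EAG family, read 4.24 and 5.03 on the CTPN arrays, against 7.29 and 6.97 on the CPN arrays (-2.50 ± 0.30, adjusted p = 0.000661), so CTPN lay well under the array medians. Kcnc2, the channel Kv3.2 of fast-firing cells, had a difference of -2.29 ± 0.25 (adjusted p = 0.000405). Kcnv1, a silent subunit that modifies other channels, was 4.76-fold lower (-2.25 ± 0.33, adjusted p = 0.00262), and Kcnip2, a subunit of A-type channels, was 3.15-fold lower (-1.65 ± 0.25, adjusted p = 0.00312). Averaged over its 3 probe sets Kcnip2 was -0.70 and did not pass. Kcnn2, the calcium-activated SK2 channel, was 3.45-fold higher (1.79 ± 0.21, adjusted p = 0.000661) and lay outside all CPN arrays of every stage.

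Calcium channel and signalling genes had 2 higher and 1 lower of 37, with a median of -0.11. Cacna2d2, an auxiliary calcium channel subunit, was 3.01-fold higher (1.59 ± 0.29, adjusted p = 0.0151), Caln1, a calmodulin-like protein, was 3.07-fold higher (1.62 ± 0.36, adjusted p = 0.0419), and Ryr2, the calcium release channel, was 2.34-fold lower (-1.23 ± 0.24, adjusted p = 0.0224). The mean of all probe sets gave 0.54 for Cacna2d2 and 1.05 for Caln1, and neither passed. None of 10 sodium and HCN channel genes passed, with a median of 0.09. Scn1a, a voltage-gated sodium channel, read 9.16 and 11.48 in CTPN, against 8.21 and 8.31 in CPN (2.06 ± 0.56, adjusted p = 0.135).

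Presynaptic genes held 1 lower and 1 higher member. Slc17a6, the glutamate transporter VGLUT2, read 5.89 and 6.39 on the CTPN arrays, against 8.98 and 8.79 on the CPN arrays (-2.74 ± 0.40, adjusted p = 0.00262). Averaging its 2 probe sets gave -1.49, which did not pass. Slc17a7, the VGLUT1 transporter of most cortical neurons, read 7.89 and 8.82 in CTPN, against 9.01 and 9.08 in CPN, and did not pass (-0.69 ± 0.46, adjusted p = 1). Syt2, a fast calcium sensor, differed by 1.31 ± 0.26 (adjusted p = 0.0216). The other presynaptic genes, of 30 in all, did not pass, and the median was -0.06. None of 21 glutamate receptor, 18 postsynaptic density and 13 GABA receptor genes passed, with medians of 0.01, -0.01 and -0.14.

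Peptide receptors changed in both directions. Ntsr1, the neurotensin receptor known from layer VI corticothalamic neurons, was 3.04-fold higher (1.60 ± 0.31, adjusted p = 0.0212). It was the 1 of 16 layer VI and subplate genes that passed, and the median of that list was 0.15. Sstr3, a somatostatin receptor, had a difference of -1.85 ± 0.26 (adjusted p = 0.00229), and Crhr1, the receptor of corticotropin-releasing hormone, was 2.44-fold lower (-1.29 ± 0.24, adjusted p = 0.0174). With Npr3, the 29 neuropeptide genes held 2 higher and 2 lower members and a median of -0.13. Of 23 neuromodulator and other receptors, Gpr6 was lower and the others did not pass, with a median of -0.06.

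Most activity-regulated genes had negative differences. Egr2, an immediate early zinc finger factor, read 5.61 and 6.16 on the CTPN arrays, against 8.74 and 9.22 on the CPN arrays (-3.09 ± 0.49, adjusted p = 0.00498). Nptx2, a secreted pentraxin that gathers AMPA receptors, read 6.04 and 5.62 on the CTPN arrays, against 8.72 and 8.41 on the CPN arrays (-2.73 ± 0.27, adjusted p = 0.000218). For both genes CTPN lay under the array medians and CPN above. Gadd45b, a stress-induced gene, was 2.23-fold higher (1.16 ± 0.22, adjusted p = 0.0208). Fos read 8.95 and 9.20 in CTPN, against 10.71 and 10.94 in CPN (-1.75 ± 0.51, adjusted p = 0.179), and Arc differed by -1.41 ± 0.33 (adjusted p = 0.0573), and neither passed. In the list of 28, 2 were lower and 1 higher, against 0.605% and 0.456% of all genes. In this list 19 differences were below 0 and the median was -0.36. Both CTPN arrays lay below both CPN arrays for 16 of the 28, against 20.3% of all genes.

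Area patterning genes are set out because the labels name different areas. Tenm3 was higher and Lmo4 lower, and the other 20 of 22 did not pass. The median was 0.09. Nr2f1 (COUP-TFI), a nuclear receptor that is graded along the cortex in mouse, read 9.36 and 9.40 on the CTPN arrays, against 10.24 and 10.36 on the CPN arrays. Its CTPN arrays lay below its CPN arrays, and the difference of -0.92 ± 0.40 did not pass (adjusted p = 0.637). Matrix and growth factor genes held Vcan, the proteoglycan versican, with a difference of 2.20 ± 0.20 (adjusted p = 0.000151), beside the lower genes Igfbp4 and Dkk3. Dkk3, a secreted Dickkopf protein, was 3.16-fold lower (-1.66 ± 0.34, adjusted p = 0.0278). All 8 Vcan probe sets were higher in CTPN, but their mean was 0.58 and did not pass. The median over these 34 genes was -0.20.

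Lists of general cell functions gave no calls. None of 33 oxidative phosphorylation, 15 glycolysis, 15 cholesterol synthesis and 19 cytosolic ribosomal protein genes passed. Their medians were -0.13, -0.24, -0.32 and -0.27, beside 0.00 over all genes. Leaving out the second CTPN array brought the oxidative phosphorylation, cholesterol and ribosomal medians to -0.03, -0.02 and -0.04. The oxidative phosphorylation median was 0.00 without the first CPN array and -0.29 without the second.

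**Figure D3:**
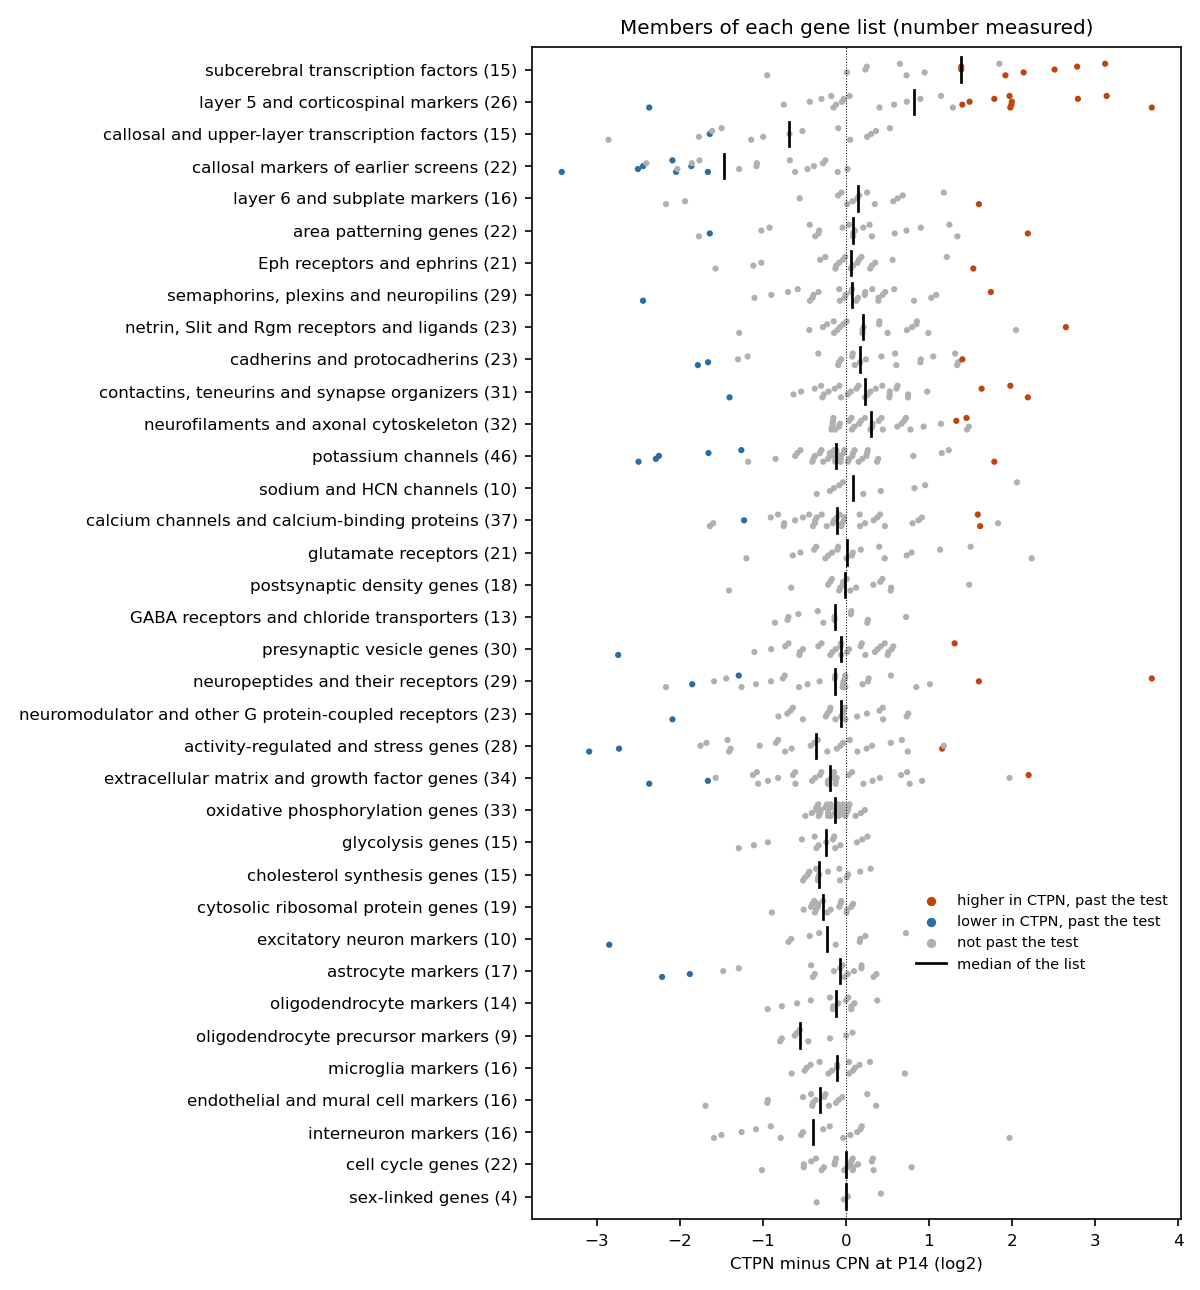
CTPN minus CPN at P14 (log2) for every measured member of each gene list, with the number measured in brackets. Each point is a gene, coloured where it passed the test, and black bars are list medians. Subcerebral transcription factors (median 1.39) and callosal markers of earlier screens (median -1.47) lie on opposite sides of 0.

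No marker of another cell type passed as higher in CTPN. The group mean lay above 6.62 for 10 of 17 astrocyte markers in CTPN and 13 in CPN, for 10 of 16 microglia markers in each group, and for 8 of 16 endothelial and mural markers in CTPN and 10 in CPN. It did so for 7 of 14 oligodendrocyte markers in each, for 5 of 9 precursor markers in CTPN and 6 in CPN, and for 8 of 16 interneuron markers in CTPN and 10 in CPN. The level of 6.62 is a median over all probe sets, while each gene was read by its brightest one, which favours values above it. These counts therefore do not show that a cell type was present, and the same share over all genes was not computed. In such bulk samples fewer cells of a type and less RNA per cell cannot be told apart. Of 17 astrocyte markers 2 passed, both lower: Aldh1l1, a folate enzyme, at 6.76 and 6.69 in CTPN, against 9.04 and 8.83 in CPN (-2.21 ± 0.32, adjusted p = 0.00245), and Slc1a2, the glutamate transporter GLT-1, at 9.69 and 10.58 in CTPN, against 11.96 and 12.07 in CPN (-1.88 ± 0.35, adjusted p = 0.0159). Aldh1l1 gave 0.09 without letter-marked probe sets, and the mean of 5 probe sets gave -0.78 for Slc1a2, which did not pass. Differences were below 0 for 11 of the 17, and the medians were 6.76 and 6.73 on the CTPN arrays and 7.09 and 6.97 on the CPN arrays. Gfap, the astrocyte filament, read 6.73 and 6.49 in CTPN, against 7.09 and 6.97 in CPN, near the array medians in both.

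None of 14 oligodendrocyte, 9 precursor, 16 microglia, 16 endothelial and mural, 16 interneuron, 22 cell cycle or 4 sex-linked genes passed. Their medians were -0.12, -0.55, -0.10, -0.31, -0.39, 0.00 and 0.00. Of 10 markers of excitatory neurons Neurod6 passed, as lower, and the median was -0.22. The brightest of the first 6 lists in CTPN were Mbp (9.995 and 9.98 in CTPN, against 9.57 and 9.65 in CPN), Sox10 (7.94 and 7.99 in CTPN, against 8.05 and 8.26 in CPN), Csf1r (9.24 and 9.13 in CTPN, against 9.57 and 9.01 in CPN), Bsg (10.33 and 9.83 in CTPN, against 11.12 and 10.94 in CPN), Reln (11.88 and 11.44 in CTPN, against 9.78 and 9.59 in CPN) and Pcna (10.29 and 10.05 in CTPN, against 10.61 and 10.45 in CPN). The mean of all probe sets gave the opposite sign for Mbp (-0.42), Sox10 (0.10) and Csf1r (0.02). For Mbp 2 of 8 probe sets were higher in CTPN. For interneuron markers 11 of 16 differences were below 0, and the medians were 6.43 and 6.83 in CTPN, against 7.33 and 7.11 in CPN. Slc32a1, the vesicular GABA transporter, read 6.79 and 7.58 in CTPN, against 9.16 and 8.21 in CPN, and Sst, somatostatin, read 7.99 and 9.79 in CTPN, against 10.45 and 9.50 in CPN. Kcnc2, which was lower in CTPN, is known from interneurons as well, and the part of such cells in its value was not tested. Reln, the secreted protein reelin, had the highest difference of its list (1.97 ± 0.46, adjusted p = 0.0583) and did not pass. Its 2 probe sets went opposite ways with a mean of 0.98 (adjusted p = 0.125), and among genes above the median brightness it passed (adjusted p = 0.0443).

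Compared with CSMN of the same age, 35 genes (0.192%) passed, 25 higher (0.137%) and 10 lower (0.055%) in CTPN. This count rests on single arrays: it was 5143 without the first CSMN array, 65 without the second, 17 or 12 without a CTPN array and 20 without either CPN array. Both comparisons share the CTPN arrays. Of the 83 genes higher than CPN, 11 were also higher than CSMN, and of the 110 lower genes, 4 were also lower. The 11 were Pbx3, Abca8a, Vcan, Car8, Tenm3, Wnt5a, C1ql2, Gsg1l, Stac, Slc35d3 and Apela. The 4 were Igfbp4, Nell1, Tmtc1 and Slc35f4.

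Pbx3 read 10.001 and 9.97 in CTPN, against 7.94 and 4.94 in CSMN, with CTPN above both (3.55 ± 0.64, adjusted p = 0.0396). Tenm3 read 12.03 and 12.55 in CTPN, against 10.40 and 9.57 in CSMN, and differed by 2.31 ± 0.30 (adjusted p = 0.00648). Igfbp4 differed by -2.46 ± 0.20 (adjusted p = 7.59e-05). Bcl11b, by contrast, read 11.50 and 11.79 in CTPN, against 11.35 and 11.37 in CSMN, and did not pass (adjusted p = 0.84), and Crym read 12.48 and 12.23 in CTPN, against 12.44 and 11.94 in CSMN (adjusted p = 0.93). No member of the subcerebral transcription factor list differed from CSMN past the test, which 0.192% of all genes passed. Missing this test does not show equal levels. Both CTPN arrays lay above both CSMN arrays for Otx1 (difference 1.37), Fezf2 (0.92) and Bcl11b (0.29), while the arrays of Tox and Nfib overlapped.

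The levels of the named genes in CPN of other ages place the P14 difference, as a description without a test. Of the 83 higher genes, 54 lay above all 8 CPN arrays from E18 to P14, and of the 110 lower genes 25 lay below all 8. All 193 genes past the test already lay beyond both CPN arrays at P14, so the selection set part of these counts. The same share over all genes was not computed. Bcl11b averaged 11.65 in CTPN, against CPN means of 10.43 at E18, 10.13 at P3, 7.78 at P6 and 8.52 at P14. Neurod6 averaged 7.59 in CTPN, against 11.87 at E18, 11.68 at P3, 11.54 at P6 and 10.44 at P14 in CPN. Prdm8 averaged 6.77 in CTPN, against 9.08 at E18, 10.33 at P3, 10.65 at P6 and 9.90 at P14 in CPN. For these genes every CPN stage lay on the same side of CTPN.

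In a second set of genes CPN at P14 stood apart from younger CPN. Tnnc1 averaged 5.94 in CTPN, against 5.46 at E18, 5.49 at P3, 5.52 at P6 and 9.36 at P14 in CPN. Nptx2 averaged 5.83 in CTPN, against 5.39 at E18, 5.46 at P3, 5.38 at P6 and 8.56 at P14 in CPN. Egr2 averaged 5.89 in CTPN, against 5.54 at E18, 6.32 at P3, 6.12 at P6 and 8.98 at P14 in CPN. In these the CTPN mean was close to that of younger CPN. Pbx3 instead fell with age in CPN, with 9.99 in CTPN, against 9.71 at E18, 7.62 at P3, 5.55 at P6 and 5.02 at P14 in CPN. Its CTPN mean was near that of CPN at E18. Tenm3 averaged 12.29 in CTPN, against 10.57 at E18, 12.03 at P3, 12.09 at P6 and 10.10 at P14 in CPN, so that the younger CPN at P3 and P6 were near the CTPN level. Igfbp4 averaged 10.05 in CTPN, against 10.03 at E18, 9.72 at P3, 10.59 at P6 and 12.41 at P14 in CPN.

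**Figure D4:**
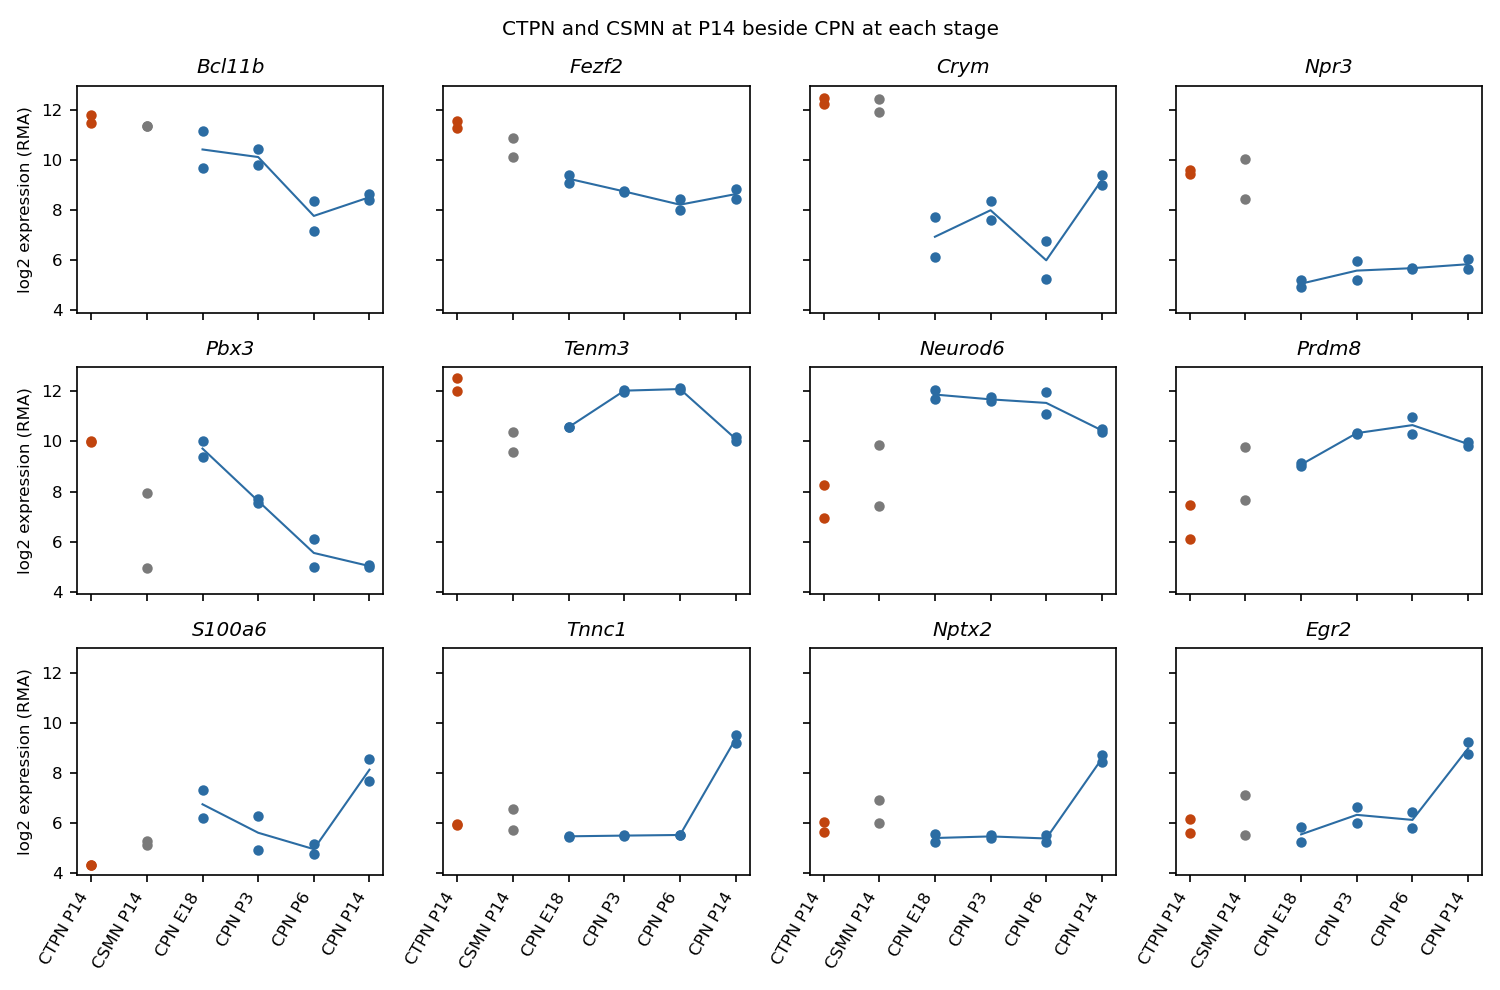
Log2 expression of 12 genes on the arrays of CTPN and CSMN at P14 and of CPN at E18, P3, P6 and P14, with 2 arrays per group and a line through the CPN means. Tnnc1, Nptx2 and Egr2 are high in CPN at P14 alone, whereas Neurod6 and Prdm8 lie above CTPN at every CPN stage.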

How the data were processed

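Purified CTPN, CSMN and CPN were measured on Affymetrix arrays. Per the labels the RNA was amplified in 2 rounds. The deposited log2 values were made by the authors with RMA, per the submitters' processing notes; the version is not given in the sources used here. They spanned 3.17 to 14.4 and received no further normalization, and no probe-level intensities were used. Array number, not sequencing depth, sets the precision.

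Of 45101 probe sets, 64 were controls, 34945 had 1 symbol, 932 several and 9160 none. The brightest probe set by mean over all arrays stood for each of 18193 genes. Gene identifiers of 34741 probe sets had a RefSeq entry, which changed 0 symbols. A single limma model (9 group means, 19 arrays, 10 residual and 4.46 prior degrees of freedom) gave two-sided moderated tests, adjusted by Benjamini-Hochberg over all genes at 0.05. On simulated data for CTPN against CPN over 18193 genes, it recovered 19.5% of 200 genes changed by a log2 of 1 (2.5% of calls false) and 83% of those changed by 2 (7.78% false). The simulated noise was independent between arrays and gave each gene the same spread in all 9 groups. In the data the median standard deviation ran from 0.0725 in CSMN at P6 to 0.457 in CSMN at P14. These rates therefore need not hold for the data.

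Genes were named if they had one of the 15 largest differences in their direction among genes past the test (clone and model names left out), or were among the 5 largest past the test in a list. Each list could add 2 familiar members that missed the test. Also named were the brightest marker of each other cell type in CTPN, and Bcl11b, Fezf2, Crym, Lmo4, Cux2, Lhx2, Nr2f1 and Pcp4. The 36 lists held 791 genes, 712 measured. The comparison, members and lists were chosen with earlier results of these data known. The familiar members, and the genes past the test against both CSMN and CPN, were picked after their values were seen. Settings tried were 2 other normalizations, a brightness filter, other probe set rules, an intensity trend, array weights, a minimum log2 difference of 1, other sets of groups, a replicate block and leaving out each array. Analyses used R 4.3.3, limma 3.58.1, Python 3.11.15 and matplotlib 3.10.9. One item is not reported here.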

Additional observations from a re-analysis of the deposited data

Results flagged for a closer look

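Probe sets without a gene symbol lay outside the comparison of genes, and 13 of these 9160 passed the same limma test between CTPN and CPN at P14, 6 higher and 7 lower in CTPN. The probe set 1452004_at read 8.33 and 8.40 in CTPN, against 5.79 and 5.93 in CPN (difference 2.50, adjusted p = 0.000161). The probe set 1431167_at read 9.01 and 8.67 in CTPN, against 6.52 and 6.40 in CPN (difference 2.39, adjusted p = 0.0333). On the lower side, 1425854_x_at read 7.36 and 7.54 in CTPN, against 10.73 and 10.36 in CPN (difference -3.09, adjusted p = 0.00117), and 1441369_at read 5.96 and 5.91 in CTPN, against 8.69 and 8.998 in CPN (difference -2.91, adjusted p = 0.00605). The x in 1425854_x_at marks possible cross-hybridization, as for the Trbv1 probe set. The lower probe sets 1425226_x_at, 1426772_x_at and 1426159_x_at carry it too. The 4 probe sets were picked among those past the test, so the lack of overlap between their groups is no further support. Over all genes the groups did not overlap in 41.4%.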

How the results depend on the processing

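The count of genes that differed between CTPN and CPN was 193, and was within 1.5 times of it under quantile and cyclic loess normalization (236 and 275). It was 119 for genes above the median brightness, 588 with array weights, 359 in a model of the 2 groups compared, 395 in a model without CSMN at P14, and 0 in a limma model of the 3 P14 groups, where 697 genes had an unadjusted p under 0.05. Leaving out each array in turn gave 51 to 395 genes. The count against CSMN was 35, with 19 above the median brightness and 12 to 5143 when each array was left out. It was 0 by limma with array weights, in the model of the 2 groups and in that of the 3 P14 groups, with 231, 214 and 492 genes at an unadjusted p under 0.05. Higher genes made up 71.4% of that count, but 55.8% under cyclic loess and 84.2% above the median brightness. Of 63 named genes past the test against CPN, 24 passed without each of the 4 arrays compared. Reversed without letter-marked probe sets were Trbv1 (0.0391), Cited4 (0.0667) and Aldh1l1 (0.0936). The causes of these changes were not tested. Deviations of the first arrays from their group means at P14 correlated at 0.126 for CTPN with CPN, -0.0989 for CTPN with CSMN and 0.211 for CSMN with CPN. With 2 arrays per group these values cannot show whether equal replicate numbers shared a collection. A replicate block gave 202 genes against CPN, 174 of them shared, and 26 against CSMN. Low signal limits the sizes: in 69 of the 193 genes not all 4 arrays lay above 6.62.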

Other observations

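Genes outside the lists also passed, and those below were chosen after their values were seen. Tmem163, a zinc-binding membrane protein of synaptic vesicles, read 10.53 and 10.22 in CTPN, against 8.27 and 7.83 in CPN, and was 5.01-fold higher (2.32 ± 0.40, adjusted p = 0.00948). Doc2b, a calcium sensor of vesicle release, was 4.61-fold higher (2.21 ± 0.42, adjusted p = 0.0164). Tox2, a relative of Tox, was 4.92-fold higher (2.30 ± 0.45, adjusted p = 0.022), and Zeb1, a zinc finger repressor, was 3.21-fold higher (1.68 ± 0.33, adjusted p = 0.0216). C1ql2, a secreted C1q-like synaptic protein, was 3.69-fold higher (1.88 ± 0.30, adjusted p = 0.00498). Wnt5a, a secreted ligand that steers axons, read 7.87 and 7.96 in CTPN, against 6.10 and 5.96 in CPN (1.88 ± 0.21, adjusted p = 0.000405).

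On the lower side, Cbln2, a secreted synapse organizer, was 2.95-fold lower (-1.56 ± 0.23, adjusted p = 0.00312), and Nrn1, an activity-induced growth protein, was 3.8-fold lower (-1.92 ± 0.35, adjusted p = 0.0144). The adhesion molecule Alcam was 3.79-fold lower (-1.92 ± 0.41, adjusted p = 0.0344). The receptor phosphatases Ptprk and Ptprm were 4.29-fold (-2.10 ± 0.25, adjusted p = 0.000661) and 2.59-fold lower (-1.37 ± 0.26, adjusted p = 0.0189). Slc30a3, the zinc transporter of glutamatergic vesicles, was 1.98-fold lower (-0.98 ± 0.21, adjusted p = 0.0397). Hrh1, a histamine receptor, was 3.06-fold lower (-1.61 ± 0.21, adjusted p = 0.00109), and Oxtr, the oxytocin receptor, read 7.32 and 7.32 in CTPN, against 8.19 and 8.16 in CPN (-0.86 ± 0.18, adjusted p = 0.0322).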
